A study of Danio rerio with 50 samples.

Results

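The cells described here are the 29 mature olfactory sensory neurons (OSNs) with an odorant receptor (OR) transcript, out of 47 single OSNs in the series, split by how strongly each cell expressed its predominant OR gene. All cells came from dissociated olfactory epithelia of 48 hpf Tu/TLF zebrafish embryos obtained by intercrossing zOMP:RFP transgenic fish. In these fish RFP is driven by the promoter of the olfactory marker protein gene, so cells of both levels had been sorted on the activity of that promoter, and embryos were pooled. Cells were captured on a Fluidigm C1 chip, amplified with SMARTer chemistry and sequenced as 1 library each, with Fluidigm spike-ins in one set of cells and ERCC spike-ins in the other. Each set was treated as 1 of the 2 independent captures described by the study. The remaining cells were 13 mature OSNs without an OR and 5 immature OSNs, and no cell had received any treatment.

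The level of a gene is given as CPM, the reads of the gene per 1000000 gene reads of the cell. The 143 OR genes were those named or101 to or139 with a hyphenated number, plus zgc:152857, and the OR gene with the highest CPM in a cell was its predominant OR. Cells at 5000 CPM or more were called high-level cells (16 cells) and cells below 5000 CPM low-level cells (13 cells). The groups were therefore chosen by the OR values themselves. OR levels are given below as a description only and no test was made on them.

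An OSN chooses a single OR gene out of a large family and keeps the others silent. In mouse, an OR protein made in the endoplasmic reticulum triggers a stress response through the kinase Perk, which stabilizes the choice and lets the neuron mature. The OR then travels to the cilia, where it couples through the G protein Golf to adenylyl cyclase and a cyclic nucleotide-gated channel, and its identity also bears on where the axon projects in the olfactory bulb.

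Predominant OR levels spanned a 569-fold range. In high-level cells the lowest was 5153 CPM, the median 10655 CPM and the highest 31584 CPM. In low-level cells these were 55.5 CPM, 1036 CPM and 3831 CPM. The cells next to the threshold were s20556, whose or125-4 stood at 5153 CPM, and s20545, whose or107-1 stood at 3831 CPM. They differed 1.35-fold, so that no wide gap separated the groups. Among low-level cells 3 stood well below the rest, s18931 with or130-1 at 154 CPM, s23567 with or115-12 at 98.4 CPM and s18930 with or111-11 at 55.5 CPM. The next cell upwards, s23570, expressed or116-1 at 706 CPM.

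The predominant OR ranked among the 10 most abundant genes in 14 of 16 high-level cells and in 0 of 13 low-level cells, and it was the most abundant gene of all in 3 high-level cells. Those were s23552 with zgc:152857 at 31584 CPM, s23559 with or132-5 at 31243 CPM and s23551 with or125-4 at 24372 CPM. Its rank had a median of 2.5 in high-level cells and 280 in low-level cells. The predominant OR took nearly all OR reads in most cells of both groups, with a median of 99.9% in high-level cells (lowest 59.8%) and 99.5% in low-level cells (lowest 54.8%). The lowest shares belonged to s20599, in which or106-8 stood at 9161 CPM beside or111-2 at 5173 CPM, and to s23558, in which or133-2 stood at 2124 CPM beside or129-1 at 1746 CPM.

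**Figure D1:**
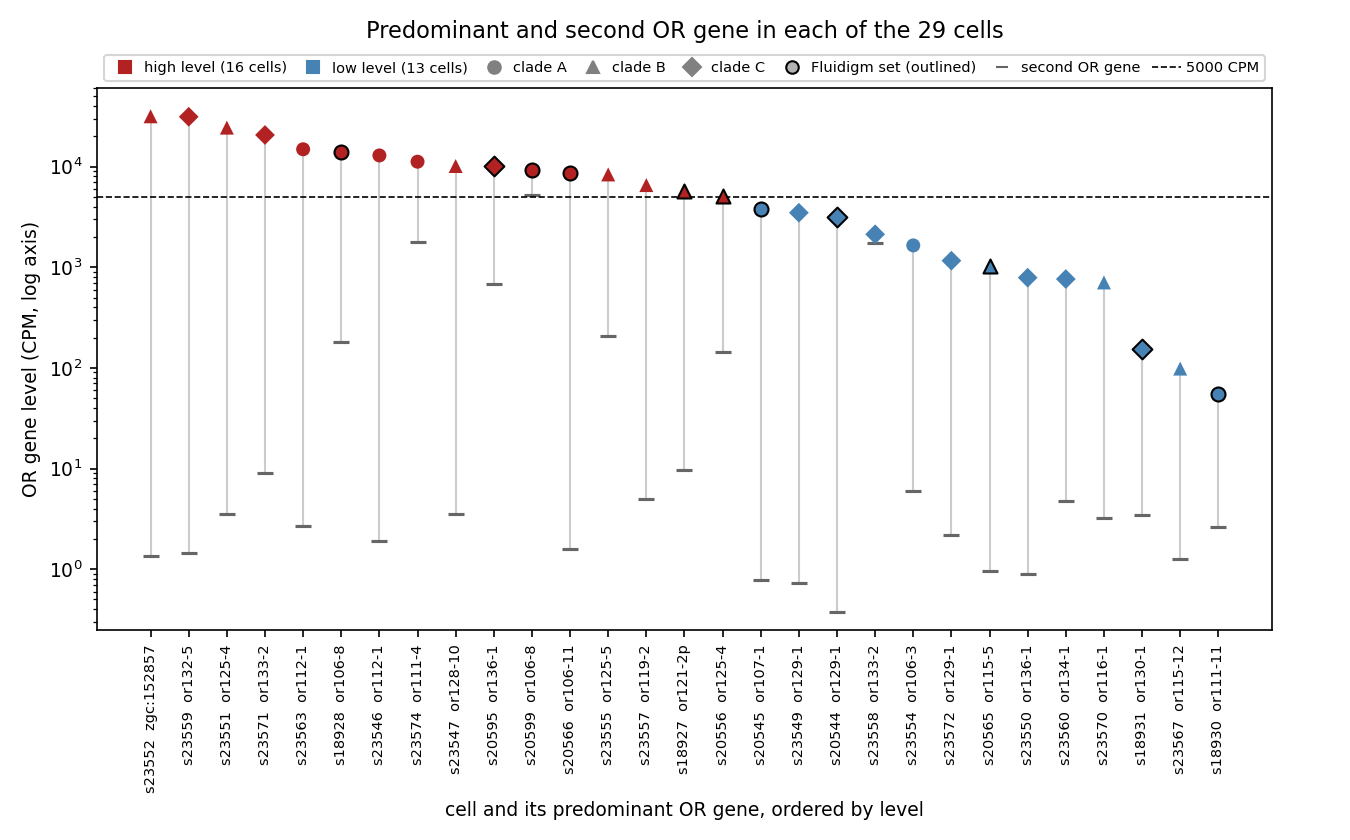
Level of the predominant OR gene (symbols) and of the second OR gene (grey dashes) in each of the 29 cells, in CPM on a log axis, ordered by level. Colour gives the level group, symbol shape the OR clade and a black outline the Fluidigm set; levels run from 31584 CPM to 55.5 CPM across the 5000 CPM line, and clade C cells (diamonds) are 3 of 16 high-level and 7 of 13 low-level cells.

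The same OR gene could be predominant at very different levels. In all, 22 OR genes were predominant, 13 of them in high-level and 11 in low-level cells, and 6 were predominant in more than 1 cell. or136-1 reached 10106 CPM in high-level s20595 and 787 CPM in low-level s23550, a 12.8-fold range, and or133-2 stood 9.70-fold higher in high-level s23571 than in low-level s23558, where it was at 2124 CPM. These 2 genes were the only ones found in both groups. or125-4 ranged 4.73-fold over 2 high-level cells and or129-1 ran from 1161 CPM to 3478 CPM over 3 low-level cells, whereas the pairs for or106-8 and or112-1 differed 1.54-fold and 1.15-fold.

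ORs fall into clades A, B and C by sequence homology, and the clades were spread unevenly over the groups. High-level cells comprised 6 cells of clade A, 7 of clade B and 3 of clade C, and low-level cells comprised 3 of clade A, 3 of clade B and 7 of clade C. Level and clade overlap to this extent, and counts by clade are given below for some of the genes. The spike-in sets were balanced, with 6 Fluidigm and 10 ERCC cells at high level and 5 Fluidigm and 8 ERCC cells at low level. Total gene counts ran from 7130690 to 30192554 per high-level cell and from 6951519 to 24662525 per low-level cell. The median number of genes with a read was 6444 in high-level and 6701 in low-level cells. The median number with 100 or more counts was 1668 and 1693, so detection was close in both groups.

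The label of mature ciliated OSN was checked against 7 markers (gng13b, gnal, ompb, cnga4, cnga2, ano2 and adcy3b). All 16 high-level cells had 100 or more counts of at least 4 of them, and so did 11 of 13 low-level cells. The other low-level cells, both of the Fluidigm set, were s20565 with 1 marker and s18930 with 0 markers. Their summed marker levels were 54.4 CPM and 2.84 CPM, against 1881 CPM to 11192 CPM in high-level cells and 1624 CPM to 12471 CPM in the other 11 low-level cells. The label therefore did not hold for s18930 by these markers and hardly held for s20565.

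s18930, the cell with the lowest OR level, stood apart in other genes as well. Transcripts of cytosolic ribosomal proteins summed to 212848 CPM in this cell, against 1523 CPM to 35384 CPM in high-level cells and 4067 CPM to 23181 CPM in the other low-level cells. pvalb5, which encodes a parvalbumin and stood at 4441 CPM or more in every high-level cell, was at 20.5 CPM there. In s23567, the second lowest cell by OR level, the trace amine-associated receptor gene taar14h stood at 13058 CPM, far above its predominant OR at 98.4 CPM. This was the only one of the 29 cells in which any of the 113 TAAR, olfc and ora genes exceeded the predominant OR. The next highest was olfcg1 at 384 CPM in high-level s18927, and the median of the highest such gene was 0.110 CPM in high-level and 0.427 CPM in low-level cells. Without s18930, s23567 and s20565, the cell with 1 marker, the median log2 ratio over all genes tested, described below, was 0.17. With them it was -0.03.

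The question of the comparison was whether cells with much OR transcript differ in any other gene from cells with little. Reads were summed over the cells of each level and spike-in set, giving 2 sums per level, since cells of the same run are not independent replicates. The 5621 non-OR genes with 100 or more counts in at least 3 of the 29 cells were tested with edgeR's quasi-likelihood test. At an adjusted p under 0.05 (Benjamini-Hochberg), 0 genes were higher in high-level cells (0% of genes tested) and 0 were lower. The smallest adjusted p in edgeR was 0.179, for atp6v0a1a. At an unadjusted p under 0.05, 99 genes were higher and 71 lower. limma on the same sums called 0 and 0 genes, and DESeq2 called 261 and 214. The spread between sums of the same level was wide, with a common dispersion of 2.94.

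When edgeR was fitted with a block for the spike-in set, 2 genes were called higher in high-level cells (0.0356% of genes tested) and 0 lower. Both encode calcium-binding proteins. calb2a, which encodes calretinin, differed by a log2 fold change of 2.30 (adjusted p = 0.000781 in edgeR with the block), and without the block by 2.06 ± 0.69 (SE, adjusted p = 0.999). Its 2 sums were 6945 CPM and 1020 CPM at high level, against 1818 CPM and 182 CPM at low level. In single cells it reached 100 or more counts in 8 of 16 high-level and 3 of 13 low-level cells. It ran up to 23598 CPM in high-level cells (median 113 CPM) and up to 11688 CPM in low-level cells (median 1.95 CPM), so the ranges overlapped throughout. Of the 8 high-level cells, 5 were among the 7 clade B cells.

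pvalb5 differed by a log2 fold change of 0.48 (adjusted p = 1.17e-06 in edgeR with the block) and, without the block, by 0.51 ± 0.22 (SE, adjusted p = 0.999). Its sums were 25303 CPM (Fluidigm) and 21909 CPM (ERCC) at high level, against 13572 CPM (Fluidigm) and 23593 CPM (ERCC) at low level, so the direction was the opposite in the ERCC set. Per cell it ran from 4441 CPM to 42948 CPM in high-level cells (median 23586 CPM) and from 20.5 CPM to 33987 CPM in low-level cells (median 22227 CPM). The low Fluidigm sum contains s18930 at 20.5 CPM and s20565 at 2500 CPM. Both calls were lost without s18930, s20565 and s23567. In edgeR with the block pvalb5 then had a log2 fold change of -0.17 and calb2a of 1.55 (adjusted p = 1 for both), and 0 genes were called in either direction (33 higher and 42 lower at an unadjusted p under 0.05).

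Leaving out single cells brought isolated calls in edgeR. atp6v0a1a, a subunit of the proton pump of synaptic vesicles and endosomes, was called lower without s18930, without s18931 or without s20545. Its log2 fold changes were then -8.98, -8.80 and -8.80, at adjusted p = 0.0175, 0.0492 and 0.0319. With all 29 cells it was -8.43 ± 2.03 (SE). It had 100 or more counts in 0 of 6 and 3 of 10 high-level cells (Fluidigm and ERCC) and in 4 of 5 and 1 of 8 low-level cells, and the highest cell stood at 24.96 CPM at high level and at 5170 CPM at low level. calb2a was called higher without s18931 (log2 fold change 5.90, adjusted p = 0.00028). btaf1, a regulator of TATA-binding protein, was called lower without s23546 (-11.95, adjusted p = 0.0455) and without s18930, s20565 and s23567 (-9.87, adjusted p = 0.0378). btaf1 reached 100 counts in 1 high-level and 3 low-level cells.

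Because most transcripts were found in only some of the cells, genes were also compared by the share of cells with 100 or more counts, as a description without a test. A difference of 25 percentage points or more in the same direction in both sets was met by 68 genes that were found in more high-level cells (1.21% of 5621) and by 76 genes found in fewer (1.35%). Genes with the widest smaller difference of both sets are given for each direction. Over all 5621 genes, 45.9% were found in a larger share of high-level cells and 53.9% in a smaller share, with a median of -2.88 points.

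**Figure D2:**
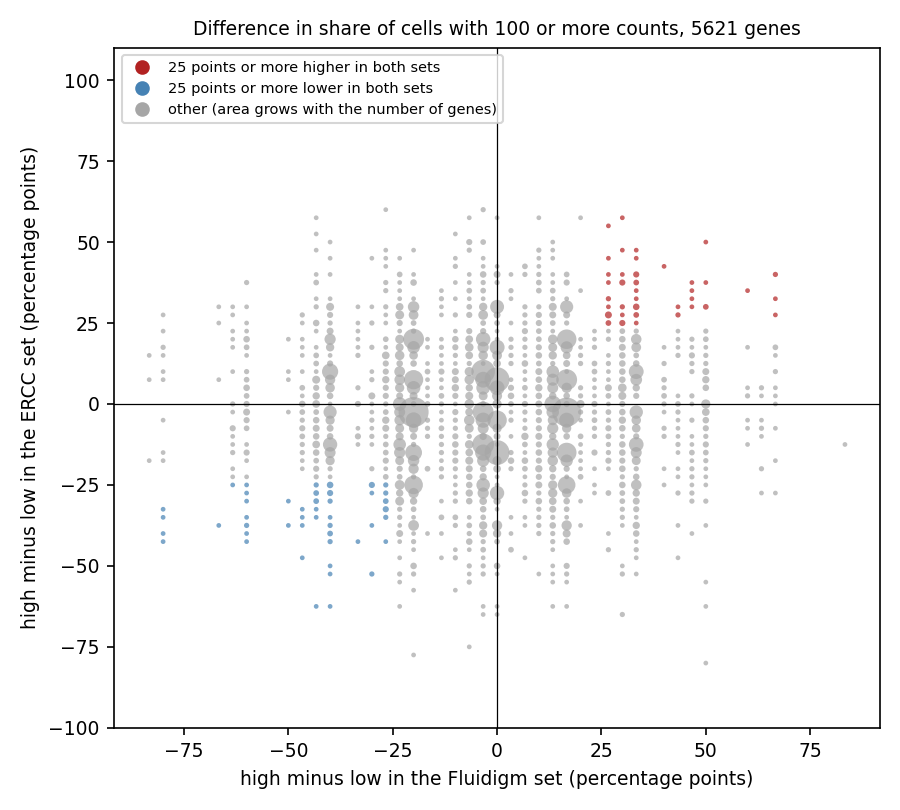
Difference between high-level and low-level cells in the share of cells with 100 or more counts, in percentage points, in the Fluidigm set (x axis) and the ERCC set (y axis), for the 5621 non-OR genes. Dot area grows with the number of genes at a position; 68 genes (red) lie 25 points or more above 0 and 76 genes (blue) 25 points or more below 0 in both sets.

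Among the genes ranked first for being found in more high-level cells, 3 did not reach 100 counts in any low-level cell. Some genes of the lists described further below did not either. ndufs6, a subunit of mitochondrial complex I, was found in 8 of 16 high-level cells (3 of 6 Fluidigm and 5 of 10 ERCC). It was found in 0 of 13 low-level cells. For 13 independent cells this would allow a share of up to 23.1%. These cells share runs and the gene was picked by its share difference, so the limit may be too low. ndufs6 ran up to 994 CPM in high-level cells (median 19.3 CPM) and no higher than 2.82 CPM in low-level cells (median 0.0481 CPM). chchd2, which encodes a small protein of the mitochondrial intermembrane space, was found in 8 high-level and 0 low-level cells, and ran up to 1696 CPM and 0.288 CPM. zfand3, a zinc finger gene, was likewise found in 8 and 0 cells and ran up to 1354 CPM and 1.07 CPM. None of these 3 genes was found in every high-level cell, and 5 of 6, 4 of 6 and 4 of 6 clade A high-level cells had them. In mature cells without an OR they were found in 2, 7 and 4 of 13 cells.

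A further 6 genes were present in both groups. rps21, which encodes a protein of the small ribosomal subunit, was found in 12 of 16 high-level and 4 of 13 low-level cells. Its mean was 135 CPM in high-level and 151 CPM in low-level cells, the opposite direction from its share, and its highest low-level cell was s18930 at 1287 CPM. psmb7, a subunit of the proteolytic core of the proteasome, was found in 10 high-level and 3 low-level cells and had medians of 135 CPM and 0.657 CPM. si:dkey-15h8.1, listed by RefSeq as znf1179, was found in 9 and 2 cells with medians of 162 CPM and 0.307 CPM. It belongs to a family of similar zinc finger genes, so that reads may have been split among its members. The gene that RefSeq lists as mgarpa, which has a clone-based name in the files, was found in 8 and 1 cells, tial1, which encodes an RNA-binding protein of stress granules, in 8 and 1 cells, and necap1, which acts in clathrin-mediated endocytosis, in 9 and 2 cells.

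Among the genes ranked first for being found in fewer high-level cells, actr1 and gsk3ab did not reach 100 counts in any high-level cell. Some genes of the lists described further below did not either. actr1, which encodes the actin-related protein of the dynactin complex, was found in 0 of 16 high-level and 7 of 13 low-level cells. For independent cells, 0 of 16 would allow a share of up to 18.8%. actr1 ran up to 4.99 CPM in high-level cells and up to 1066 CPM in low-level cells. gsk3ab, a glycogen synthase kinase gene, was found in 0 and 6 cells and ran up to 4.80 CPM and 634 CPM. Fewer than 100 reads do not mean absence. The share difference of gsk3ab was -46.2 points at 100 counts, -22.6 points at 10 or more counts and -23.1 points at 10 CPM or more. Both were found in low-level cells of both sets, actr1 in 2 of 5 Fluidigm and 5 of 8 ERCC cells and gsk3ab in 2 of 5 and 4 of 8. Of the 7 low-level cells with actr1, 5 were of clade C, and of the 6 with gsk3ab, 3 were.

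atp6v1ba, another subunit of the vacuolar proton pump, was found in 2 of 16 high-level cells and 9 of 13 low-level cells, with medians of 0.864 CPM and 180 CPM. rbm39a, a splicing factor gene, was found in 2 and 8 cells with medians of 0.326 CPM and 283 CPM. arf1l, which encodes a small GTPase of the ADP-ribosylation factor family, was found in 1 and 8 cells. zfhx3, a homeobox zinc finger transcription factor gene, was found in 1 and 8 cells with medians of 0.0983 CPM and 104 CPM, and in 0 of 13 mature cells without an OR. ilf3b, which encodes a double-stranded RNA-binding protein, was found in 6 and 11 cells. gng5, a G protein gamma subunit gene, and atad2b, a bromodomain ATPase gene, were each found in 1 and 7 cells. ahi1, a gene of the ciliary transition zone, was found in 2 and 7 cells, 5 of the 7 of clade C. In clades A and B it was found in 2 of 13 high-level and 2 of 6 low-level cells. None of these 19 genes separated the groups completely. In the main edgeR fit each of them had an adjusted p of 0.999. DESeq2 called ndufs6, chchd2, zfand3 and tial1 higher and actr1, gsk3ab and rbm39a lower, and did not call the others.

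**Figure D3:**
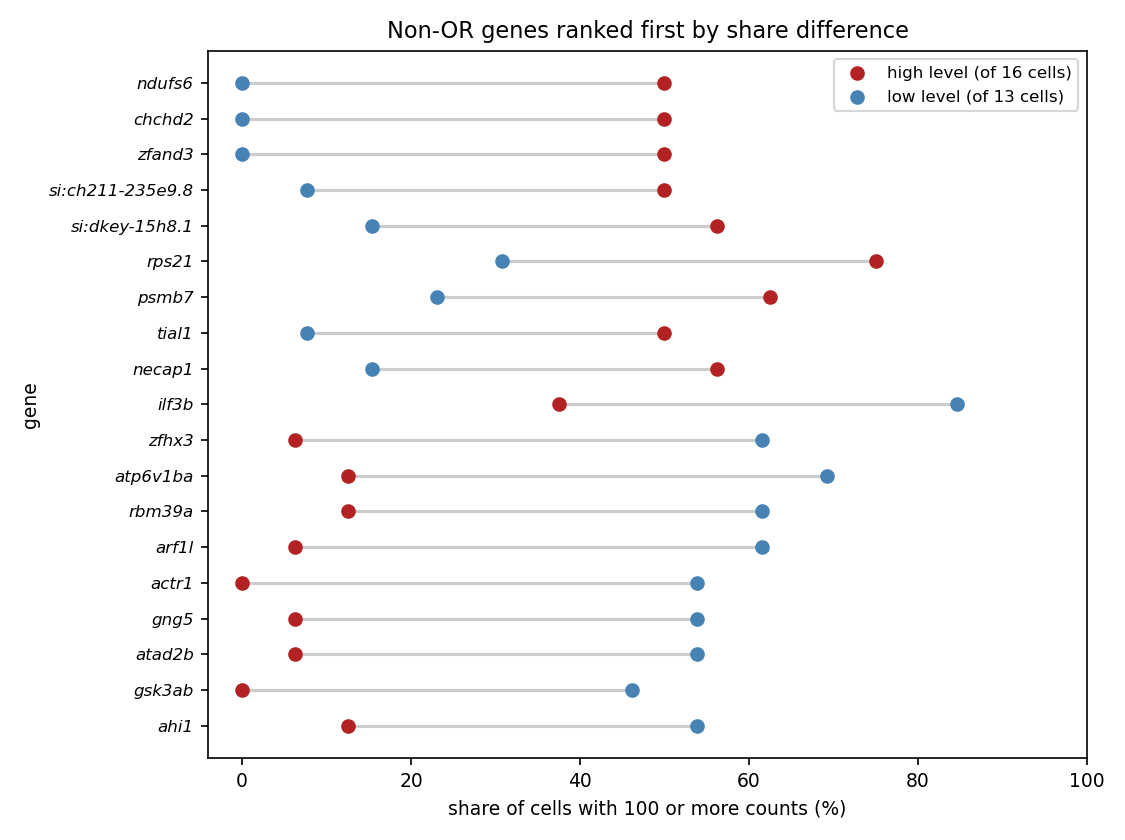
Share of high-level cells (red, of 16) and low-level cells (blue, of 13) with 100 or more counts of 19 non-OR genes ranked first, 9 found in more and 10 found in fewer high-level cells. ndufs6, chchd2 and zfand3 are at 50.0% and 0%, and actr1 and gsk3ab at 0% and 53.8% or 46.2%.

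Odour transduction genes lay on both sides. Of 28 listed genes in the table, 19 passed the filter, 8 of them in a larger share of high-level cells, 9 in a smaller share and 2 in an equal share, with a median difference of 0 points. The median log2 ratio of mean CPM plus 1 was 0.05 (all genes tested, -0.03). The summed level of all 28 genes ran from 10310 CPM to 24118 CPM in high-level cells (median 15729 CPM) and from 4412 CPM to 25974 CPM in low-level cells (median 14688 CPM). The lowest sums were those of s18930 at 4412 CPM and s20565 at 5025 CPM. Without s18930, s20565 and s23567 the median log2 ratio was -0.02.

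ompb, which encodes an olfactory marker protein, was the marker with the widest difference in share. It had 100 or more counts in 16 of 16 high-level cells and 10 of 13 low-level cells. It ran from 110 CPM to 2624 CPM in high-level cells (median 918 CPM) and from 0.507 CPM to 1745 CPM in low-level cells (median 410 CPM). The 3 low-level cells without it were s18930, s20565 and s23567, at 1.38 CPM, 0.507 CPM and 6.92 CPM, so that without them ompb was found in 16 of 16 and 10 of 10 cells. The rank correlation of ompb with OR level was 0.41 over all 29 cells, which share runs and unequal depths. These include the 3 cells without ompb, whose OR levels were low, at 55.5 CPM, 1036 CPM and 98.4 CPM.

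gnal, the alpha subunit of Golf, was found in 15 high-level and 11 low-level cells with medians of 1436 CPM and 972 CPM, and the G protein subunit gene gng13b in 14 and 11 cells with medians of 731 CPM and 2188 CPM. gnb1a, a beta subunit gene, was found in 16 and 11 cells, and its relative gnb1b in 14 and 12. The channel genes cnga4 and cnga2 were found in 14 and 11 cells and in 9 and 6 cells, and the calcium-activated chloride channel gene ano2 in 8 and 7. The adenylyl cyclase gene adcy3b was found in only 6 high-level and 5 low-level cells but ran up to 4582 CPM at high level and 286 CPM at low level, with a log2 ratio of means of 4.14. Among the other members, calm1b (calmodulin) was found in 11 and 5 cells, calm3a in 2 and 4, calm3b in 14 and 13, calm2b in 15 and 13, and calm1a and calm2a in every cell. ompa was found in 4 and 6 cells, the phosphodiesterase gene PDE1C in 6 and 8, gnal2 in 1 and 2, and a second GNAL copy in 3 and 2.

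**Figure D4:**
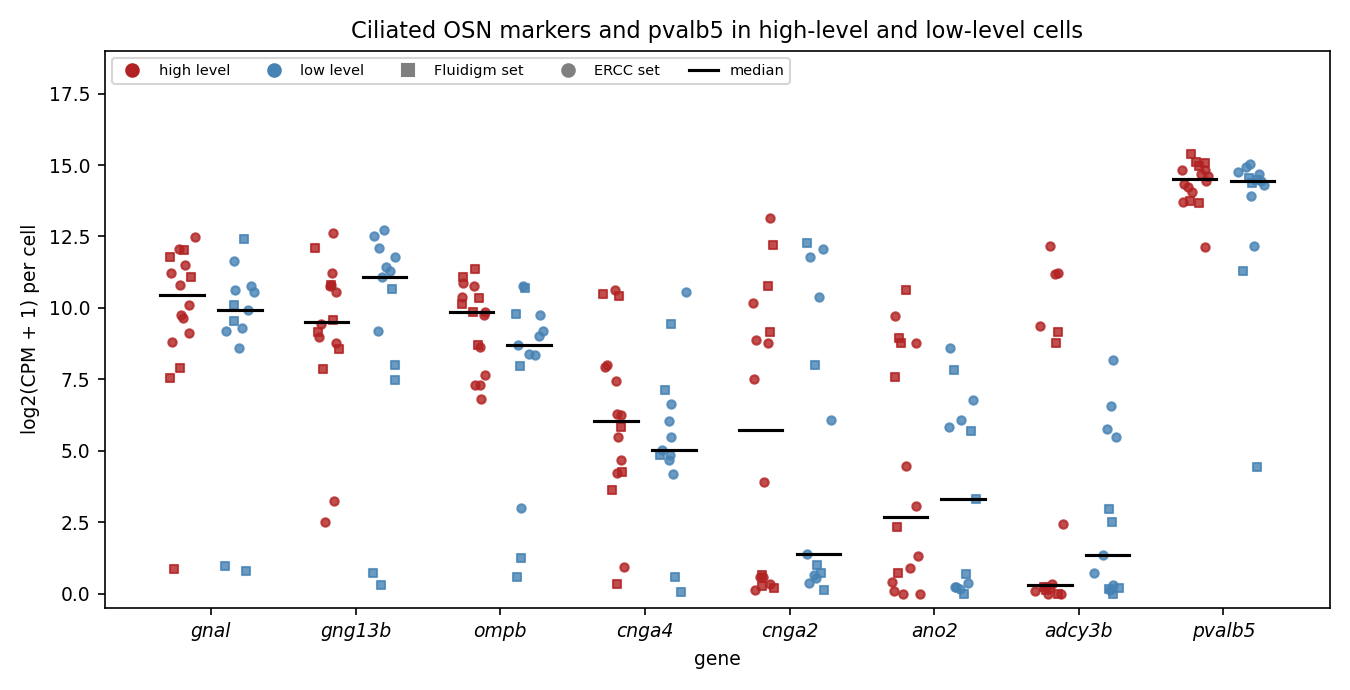
Level of the 7 ciliated OSN markers and of pvalb5 in each high-level (red) and low-level (blue) cell, as log2(CPM + 1), with squares for the Fluidigm set, circles for the ERCC set and bars at the medians. The groups overlap for every gene; the Fluidigm cells s18930 and s20565 lie near 0 for gnal, gng13b, ompb and cnga4.

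Genes of the unfolded protein response and endoplasmic reticulum (ER) chaperones were found in more high-level cells on balance, unevenly over sets and cells. Of 32 members tested, 20 were found in a larger share of high-level cells and 12 in a smaller share, with a median of 4.81 points (all genes tested, -2.88), and 0 met the difference of 25 points in both sets. Their median log2 ratio was 0.89, or 1.28 in the Fluidigm set and 0.20 in the ERCC set, and 0.02 without the high-level cell s20599. The summed level of the 43 listed genes in the table ran from 2652 CPM to 23583 CPM in high-level cells (median 13277 CPM) and from 3299 CPM to 20560 CPM in low-level cells (median 7104 CPM). derl1, an ER-associated degradation gene, was found in 13 of 16 high-level and 5 of 13 low-level cells, with medians of 118.5 CPM and 0.719 CPM. hspa5, which encodes the ER chaperone BiP, was found in 9 and 3 cells with medians of 161 CPM and 0.625 CPM. atf3, a stress-induced transcription factor gene, was found in 7 and 2 cells, 5 and 2 of them of clade A, and dnajb11, an ER co-chaperone gene, in 8 and 3. For hspa5 and atf3 the Fluidigm cells with 100 counts were 3 of 6 at high level and 2 of 5 at low level, so most of the difference lay in the ERCC set.

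Helpers of receptor export and N-glycosylation lay on both sides. Of 32 tested, 12 were found in a larger share of high-level cells and 20 in a smaller share (53.9% of all genes tested were in a smaller share). The median was -5.05 points (all genes tested, -2.88) and the median log2 ratio -0.36 (all genes tested, -0.03). Within this list 4 genes met the 25 points in both sets upwards (1.21% of all genes tested) and 1 downwards (1.35%). ssr4, a subunit of the translocon-associated complex, was found in 4 of 16 high-level and 9 of 13 low-level cells. STT3B, a catalytic subunit of the oligosaccharyltransferase, was found in 7 and 1 cells and ran up to 4098 CPM and 116 CPM, ost4 of the same complex in 8 and 2 cells, 6 and 1 of them of clade B, and rpn2, also of that complex, in 2 and 6. Subunits of a single enzyme complex thus lay on both sides.

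A list of candidate regulators of OR choice held homeobox, EBF transcription factor and cofactor genes. Of its 18 genes tested, 8 were found in a larger and 10 in a smaller share of high-level cells (median -2.88 points, as over all genes tested). Their median log2 ratio was -0.46. lhx2b, an orthologue of the LIM homeobox gene Lhx2, was found in 2 of 16 high-level and 7 of 13 low-level cells and ran up to 575 CPM and 2182 CPM. The difference lay in the ERCC set (1 of 10 against 6 of 8 cells), whereas 1 of 6 and 1 of 5 Fluidigm cells had it, and 5 of the 7 low-level cells with lhx2b were of clade C. lhx2a was found in 1 and 4 cells, bptf, a chromatin remodelling gene, in 6 and 10, and rcor2, a corepressor gene, in 0 and 3.

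A list of heterochromatin genes also held genes of other chromatin proteins, such as high mobility group proteins. Of its 22 genes tested, 15 were found in a larger share of high-level cells and 7 in a smaller share (median 4.09 points, median log2 ratio 0.09). That log2 ratio was 0.21 in the Fluidigm set and 1.2999 in the ERCC set. It was 0.92 without s18930, s20565 and s23567, 0.70 without s20545 and -0.22 without s23571. mbd2, which encodes a methyl-CpG-binding protein, was found in 6 high-level and 0 low-level cells. hmga1a and hmgb1a, which encode chromatin-bound high mobility group proteins, were found in 12 and 6 and in 13 and 7 cells. The histone methyltransferase gene ehmt1b was found in 8 and 11 cells, and by clade in 0 of 3 high-level and 7 of 7 low-level cells of clade C.

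Immediate early genes, which neurons switch on after activity or stress, were found in fewer high-level cells. Of 18 tested, 4 were found in a larger share of high-level cells and 14 in a smaller share, with a median of -17.5 points (all genes tested, -2.88) and a median log2 ratio of -0.70. That ratio was -1.01 in the Fluidigm set, -0.58 in the ERCC set and -0.33 without s18930, s20565 and s23567. The summed level of the 37 listed genes in the table ran from 1149 CPM to 19876 CPM in high-level cells (median 4504 CPM) and from 1459 CPM to 23998 CPM in low-level cells (median 6323 CPM), with s18930 the highest. fosab was found in 6 of 16 high-level cells, 4 of 6 Fluidigm and 2 of 10 ERCC, and in 10 of 13 low-level cells, 5 of 5 Fluidigm and 5 of 8 ERCC. It ran up to 6922 CPM in high-level cells (median 0.310 CPM) and up to 11348 CPM in low-level cells (median 1563 CPM). fosl1a was found in 1 and 4 cells and btg2, an antiproliferative gene, in 6 and 8. The mean of btg2 was higher in high-level cells (log2 ratio 1.64), the opposite direction from its share. atf3 was also on this list and was found in more high-level cells.

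**Figure D5:**
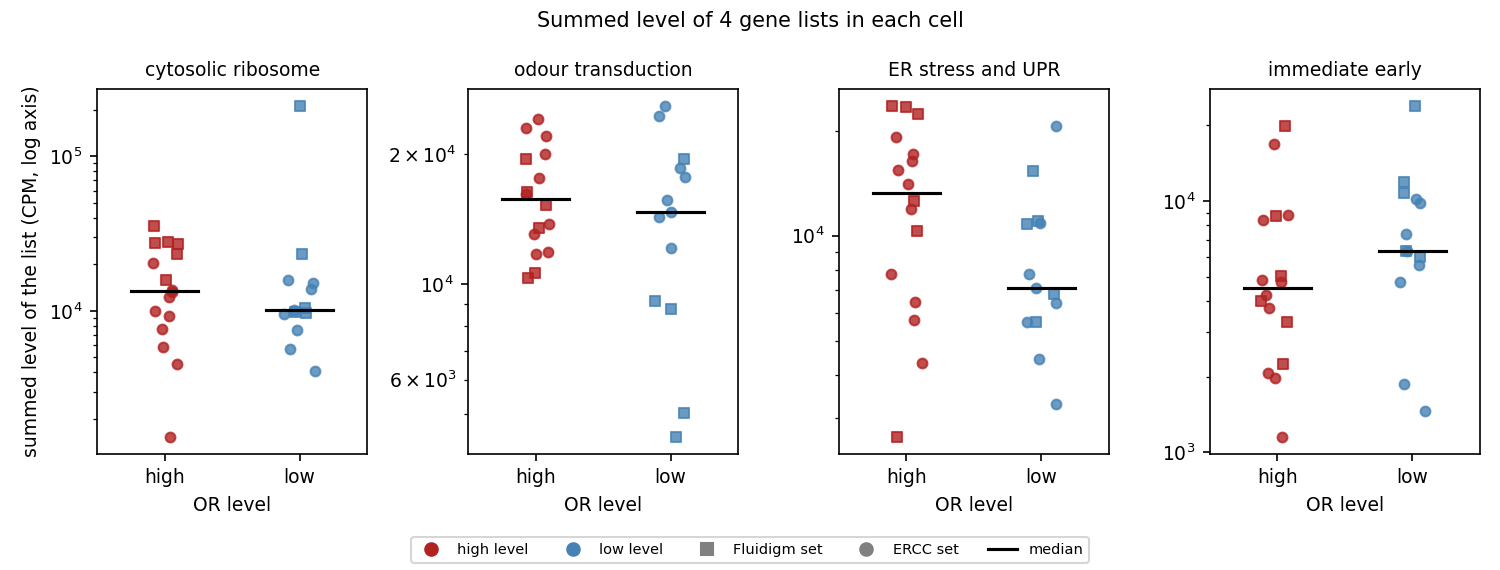
Summed level in each cell, in CPM on a log axis, of all listed genes for cytosolic ribosomal proteins, odour transduction, ER stress and the unfolded protein response (UPR), and immediate early genes, with high-level cells (red) left of low-level cells (blue), squares for the Fluidigm set, circles for the ERCC set and bars at the medians. The groups overlap in all 4 panels, and s18930 lies at 212848 CPM in the ribosomal panel.

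Ribosomal protein genes showed opposite signs by share and by mean. Of 80 tested, 44 were found in a larger share of high-level cells and 36 in a smaller share (median 3.13 points), while 72 had a lower and 8 a higher mean (median log2 ratio -0.89). Without s18930 the median log2 ratio was 0.40, so the sign of the mean rested on this cell. Of 33 proteasome genes, 19 were found in a larger and 14 in a smaller share (median 1.92 points). Their median log2 ratio was 0.45, with -0.03 in the Fluidigm set and 1.199 in the ERCC set, 1.197 without s18930 and 1.73 without s18930, s20565 and s23567. It was 0.10 without s23574 and -0.12 in clades A and B (all genes tested, 0.58 there). psmd3 was found in 7 high-level and 1 low-level cells and psmd6 in 5 and 0, but psmc3 in 0 and 4, all subunits of the regulatory particle. Of 78 nuclear genes of the mitochondrial respiratory chain, 30 were found in a larger and 48 in a smaller share (median -6.49 points, median log2 ratio -0.30). Against ndufs6, the complex I genes ndufb11 and ndufb3 were found in 0 of 16 and 2 of 16 high-level cells, and in 5 of 13 and 6 of 13 low-level cells. Of the 5 low-level cells with ndufb11, 4 were of clade C. atp5e of the ATP synthase was found in 7 and 12 cells.

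Presynaptic genes lay on both sides too. Of 26 tested, 15 were found in a larger and 11 in a smaller share of high-level cells (median 3.85 points, median log2 ratio -0.21). slc17a6b, a vesicular glutamate transporter gene, was found in 0 of 16 high-level and 5 of 13 low-level cells and ran up to 1.82 CPM and 2340 CPM, and 4 of the 5 cells were of clade C. stxbp1a, which acts in vesicle fusion, was found in 12 and 5 cells. Voltage-gated channel genes numbered 19, with 7 in a larger and 12 in a smaller share (median -5.77 points). Their median log2 ratio was -0.75, and 1.79 in clades A and B (all genes tested, 0.58 there). The calcium channel gene cacna1db was found in 6 and 1 cells and the sodium channel gene scn1lab in 5 and 2, whereas the potassium channel gene kcnh5b was found in 2 and 4 and the sodium channel gene scn8aa in 1 and 3. Of 39 cilium genes, 21 were in a larger and 18 in a smaller share, with tmem67 of the transition zone in 0 and 5 cells and bbs7 of the BBSome in 4 and 0.

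Axon guidance receptors and ligands were split as well, with 15 of 25 in a larger and 10 in a smaller share of high-level cells (median 4.81 points, median log2 ratio 0.04). epha3 was found in 8 high-level and 2 low-level cells with medians of 73.1 CPM and 0.324 CPM, and slit1a in 0 and 4. robo2, a receptor for Slit ligands, was found in 4 of 16 high-level and 7 of 13 low-level cells. By clade, it was found in 3 of 3 high-level and 5 of 7 low-level cells of clade C. In clades A and B it was found in 1 of 13 high-level and 2 of 6 low-level cells. Level and clade overlap, and the cause was not tested. Among the remaining lists, 13 of 24 oxidative defence genes and 14 of 33 cytosolic chaperone genes were in a larger share, with median log2 ratios of 0.17 and 0.18, or 0.61 and 0.60 without s18930, s20565 and s23567.

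Defining markers of immature neurons were near 0 in nearly all cells of both groups. gng8 did not exceed 0.0553 CPM in high-level and 0.159 CPM in low-level cells, and gap43 reached 0.331 CPM and 9.62 CPM at most. neurod1 was found in 1 high-level cell, at 414 CPM, and in 0 low-level cells. Of 16 genes tested from the list of immature neurons and progenitors, 8 were in a larger and 8 in a smaller share. marcksl1b was found in 13 of 16 high-level and 7 of 13 low-level cells, stmn2a in 2 and 5, insm1b in 6 and 9, and pcna, a gene of DNA replication, in 1 and 3, where it reached 4498 CPM in s18930. Erythrocyte globins were seen in the Fluidigm set alone, with hbbe1.1 at 100 or more counts in 5 of 6 high-level and 2 of 5 low-level cells and its highest level at 647 CPM and 408 CPM. The 19 listed epidermal genes summed to medians of 3297 CPM in high-level and 5636 CPM in low-level cells. Of these, epcam, an epithelial adhesion gene, was found in 15 and 12 cells, with medians of 1060 CPM and 2487 CPM. anxa1a, which the paper lists as elevated in clade C cells, was found in 5 and 7 cells. Of those 7 low-level cells, 5 were of clade C. Among keratin genes, krt5 did not exceed 0.538 CPM and 0 CPM. krt4 was found in 1 and 1 cells and ran up to 2106 CPM and 268 CPM, and krt8 was found in 1 and 2 cells. The part of blood and epidermal transcripts in the results was not tested. The 7 listed genes of microvillous neurons summed to a median of 389 CPM in high-level cells (highest 3965 CPM) and 465 CPM in low-level cells (highest 5149 CPM). Of these, the G protein genes gnao1a and gnao1b were found in 10 and 10 and in 10 and 7 cells, while the channel gene trpc2b had medians of 0 CPM in both groups. Of the 4 listed genes of crypt and terminal nerve cells, s100z was found in 6 and 4 cells and gnai1 in 4 and 1, while ora4 had medians of 0 CPM. The part of these transcripts in the results was not tested. No gene from the lists for lens, glia or immune cells passed the filter, which needs 3 cells and cannot show transcripts of a single cell. Glia and support genes summed to at most 1948 CPM at high level (s23555) and 865 CPM at low level (s18930). Their medians were 0.937 CPM and 0.328 CPM. Lens and retina genes reached 454 CPM in high-level s18928 and 54.2 CPM in low-level s23549. Immune and vessel genes reached 428 CPM in high-level s23563 and at most 1.58 CPM at low level.

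Over the 29 cells, the rank correlation of non-OR genes with the OR level ran from -0.61 to 0.56 with a median of -0.03, and 7 genes exceeded 0.5 while 18 fell below -0.5. These are descriptions over cells that share runs. The OR level itself had a rank correlation of 0.12 with the total counts and of -0.27 with the number of genes found. The highest value belonged to sec22a, a gene of ER to Golgi transport named here after its values were seen, whose median was 0.0577 CPM in high-level cells and 0 CPM in low-level cells. It reached 100 or more counts in 3 high-level and 0 low-level cells, and its highest cell stood at 5126 CPM and 0.0564 CPM. The lowest value belonged to si:dkey-244a7.1 at -0.61, also named after its values were seen. Of genes described above, STT3B stood at 0.53, si:dkey-15h8.1 at 0.49 and zfhx3 at -0.49.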

How the data were processed

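Single-cell RNA was amplified on the Fluidigm C1 and sequenced as 1 library per cell. Per the labels, the authors demultiplexed reads with CASAVA 1.8.2, aligned them to GRCz10 with STAR and counted them per gene with HTSeq, whereas the study's methods name VERSE as the counter. The deposited values are raw counts per gene without molecular identifiers. Zero limits are 3 divided by the number of cells, so they cover only the sampling of independent cells. The SE values come from the edgeR fit to the sums. Cell classes, predominant OR clades and the choice of the 29 cells follow the study, and each cell's spike-in set follows the labels. The members and gene lists were chosen with earlier results of these data known.

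CPM used all gene counts of a cell. Counts were summed per level and spike-in set (4 sums) and tested, two-sided, with edgeR 4.0.16 in R 4.3.3 (quasi-likelihood, TMM), over non-OR genes with 100 or more counts in 3 or more cells. DESeq2 1.42.0 and limma 3.58.1 were run as alternatives. Summing both sets gives n = 2 per level, and p-values measure only the spread between these sums. Same-set sums deviated together with a correlation of 0.113, and the set marks a shared run, so the result with the set as a block stands beside the main one. The block adds a term to a fit of 4 sums. Less spread between sums is then left, and its p-values rest more on variance estimates shared across genes. Log2 ratios of single genes and lists used mean CPM plus 1, which understates the change of low genes. Named genes were any gene called by the main edgeR fit and the 10 per direction with the largest smaller within-set share difference. Up to 4 members per list by share difference and every tested odour transduction gene were also named. Genes called by DESeq2 alone were not named for that call. calb2a, pvalb5, atp6v0a1a, btaf1, sec22a, si:dkey-244a7.1, taar14h and olfcg1 were named after their values were seen. Bulk samples and immature cells were not used in the comparison. One gene that the rule selects is not reported here. No sequences are given.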

Additional observations from a re-analysis of the deposited data

Results flagged for a closer look

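Summed list levels were screened for a cell far from the others of its level and spike-in set, in 44 groups of cells, of which chance alone marks about 1 in 20. Cytosolic ribosomal protein transcripts summed to 212848 CPM in s18930, a low-level cell of the Fluidigm set, against 9627 CPM to 23181 CPM in the other 4. Oxidative defence genes summed to 6642 CPM in the same cell, against 24690 CPM to 35872 CPM in the other 4. Genes for receptor export and glycosylation summed to 33.1 CPM in s23557, a high-level cell of the ERCC set whose or119-2 stood at 6548 CPM, against 730 CPM to 7354 CPM in the other 9. The causes were not tested.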

How the results depend on the processing

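edgeR called 0 genes higher and 0 lower under 2 normalizations, 3 filters (5621, 7205 and 23931 genes tested), both other thresholds, thinning to one depth and clade as a covariate. DESeq2 called 261 and 214, and the cause was not tested. With the spike-in set as a replicate block 2 genes were higher, and 0 when s18930, s20565 and s23567 were also left out. Leaving out each sum or cell gave 0 to 1 higher and 0 to 1 lower, and leaving out s18930, s20565 and s23567, chosen after seeing the data, gave 1 lower. The genes past 25 points in both sets (68 and 76) depended more on the setting. At 10 or more counts 141 were lower. At a threshold of 1000 CPM 212 and 158 were higher and lower, and 13 and 8 of them were shared with those 68 and 76. At 10000 CPM 148 were higher. Without cells between 2500 CPM and 7500 CPM the counts were 131 and 146, and in clades A and B only 175 and 232. Without s18930, s20565 and s23567, 161 were lower. Leaving out 1 cell gave 35 to 84 higher, 35 without s20556, 39 without s20599 and 45 without s20566, and 60 to 217 lower, with 177 to 217 where any of the 5 low-level Fluidigm cells was left out, because 1 of the remaining 4 cells is then 25 points. The share difference of gsk3ab turned to 5.07 points at 1000 CPM. Others shrank there, gng5 and atad2b from -47.6 to -7.25 points, atp6v1ba from -56.7 to -15.2 and psmb7 from 39.4 to 14.5. That of si:dkey-15h8.1 went from 40.9 to 47.8 points there. Differences also depended on the count minimum. At 10 or more counts psmb7 stood at 14.9 points and rps21 went from 44.2 to 19.7. atp6v1ba and gsk3ab then stood at -20.7 and -22.6 points, whereas si:dkey-15h8.1 and actr1 were wider, at 47.1 and -55.3. Of 140 list medians under alternatives, 51 moved beyond their spread, and the median log2 ratio of all genes itself moved to 0.58 in clades A and B and to 1.22 at 1000 CPM. A share over both sets rests on 16 high-level or 13 low-level cells. Within the Fluidigm and ERCC sets it rests on 6 and 10 high-level or 5 and 8 low-level cells. The low group held only 2 Fluidigm and 4 ERCC cells at 1000 CPM, and 3 and 3 in clades A and B. At 10000 CPM the high group held 2 Fluidigm and 8 ERCC cells. If cells were independent, 0 of 13 and 0 of 16 would allow up to 23.1% and 18.8%.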

Other observations

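The 13 mature cells without an OR gave the lowest end of a series from no OR through low to high OR level, and several genes did not follow that order. calb2a had 100 or more counts in 9 of 13 cells without an OR, 3 of 13 low-level and 8 of 16 high-level cells, with medians of 199 CPM, 1.95 CPM and 113 CPM. psmb7 was found in 10, 3 and 10 cells, and chchd2 in 7, 0 and 8. zfhx3 was found in 0, 8 and 1 cells and PDE1C in 1, 8 and 6. ompb was found in 12, 10 and 16 cells with medians of 758 CPM, 410 CPM and 918 CPM. The sums over odour transduction genes had medians of 15125 CPM, 14688 CPM and 15729 CPM, and those over ER stress and unfolded protein response genes of 8400 CPM, 7104 CPM and 13277 CPM. These genes were chosen after their values were seen, no test was made across the 3 groups, and the groups overlapped in every one of these genes.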
